A study of Mus musculus with 5 samples.

Results

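The 10 genes Trp63, Grhl1, Grhl2, Grhl3, Epcam, Krt8, Krt18, Krt19, Tfap2a and Tfap2c are known for the surface ectoderm, the epithelium that lies beside and then over the neural tube, and for simple epithelia. They were chosen by name, with their levels in these libraries already known, and all 10 were found among 21801 genes of the deposited table. Levels and shared variation of these genes are therefore described without a test. The study profiled neuroepithelial cells (NECs) of the mouse by RNA sequencing, under a title on the developing neocortex, and its labels call them neural progenitor cells. There is 1 group of 5 libraries, replicates 1 to 5, with no treatment or control group. The sources used here do not give strain, genotype, age, purification or whether replicates came from separate animals, so a spread between them may be technical.

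Grainyhead-like factors (Grhl1, Grhl2 and Grhl3) bind DNA in epithelia and switch on genes of cell junctions, and loss of Grhl2 or Grhl3 in the mouse leaves the neural tube open although the factors act largely in the non-neural ectoderm. Trp63 (p63) is the p53-family factor that commits surface ectoderm to epidermis, and the AP-2 factors Tfap2a and Tfap2c act in surface ectoderm, neural crest and, for Tfap2c, trophoblast and germ cells. Keratins form filaments as obligate dimers of a type I and a type II chain. Krt8 (type II) with Krt18 or Krt19 (type I) make up the filaments of single-layered epithelia, whereas Krt5 and Krt14 mark the basal layer of stratified ones. Epcam is a homophilic adhesion protein of epithelial cell membranes.

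Promoter windows of 250 bases before the start site were taken from RefSeq (GRCm38.p6, the assembly of mm10) and matched 6 of the 10 genes in 8 windows. Krt8 and Krt18 are shown because they encode partner chains, lie side by side on chromosome 15 and varied together between libraries, and Epcam and Grhl3 because one followed the keratins and the other did not. Sequences run 5′ to 3′ on the gene's strand and stop where the GENCODE gene begins. Distances are counted from the start site of the RefSeq window, which for Krt8 and Krt18 lies inside the GENCODE gene. The printed stretches of Krt8 (110 of 250 bases) and Krt18 (214 of 250) therefore end before that start site. Capitals mark a motif match, and Krt8 has none. The Krt8 stretch is chr15:102004483-102004592 (minus strand), that of Krt18 is chr15:102027966-102028179 (plus strand), that of Epcam is chr17:87635729-87635978 (plus strand) and that of Grhl3 is chr4:135573633-135573882 (minus strand).
Krt8: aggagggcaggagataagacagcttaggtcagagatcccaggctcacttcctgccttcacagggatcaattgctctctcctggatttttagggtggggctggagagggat
Krt18: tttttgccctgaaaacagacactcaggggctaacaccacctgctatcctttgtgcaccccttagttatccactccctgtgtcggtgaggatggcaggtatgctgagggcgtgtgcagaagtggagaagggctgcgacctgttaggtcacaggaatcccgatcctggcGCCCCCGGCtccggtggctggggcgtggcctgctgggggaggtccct
Epcam: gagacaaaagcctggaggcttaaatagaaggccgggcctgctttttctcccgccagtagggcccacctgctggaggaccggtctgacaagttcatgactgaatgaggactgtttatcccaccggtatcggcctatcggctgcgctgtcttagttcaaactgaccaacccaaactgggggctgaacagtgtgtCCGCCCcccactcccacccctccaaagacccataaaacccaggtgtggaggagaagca
Grhl3: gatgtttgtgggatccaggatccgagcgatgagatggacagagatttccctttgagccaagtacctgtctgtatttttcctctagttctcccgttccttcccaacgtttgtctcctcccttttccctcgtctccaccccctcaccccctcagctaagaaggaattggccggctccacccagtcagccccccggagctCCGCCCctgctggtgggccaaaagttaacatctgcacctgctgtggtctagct

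The motifs searched on both strands were AACCNGTT for Grhl factors, GCCNNNGGC for AP-2, TATAAA and the GC box GGGCGG. AACCNGTT was found in none of the 8 windows of these genes, against 1.79% of 32851 windows in the RefSeq table. GCCNNNGGC was found once in the Krt18 window, 83 to 75 bases before the start site (GCCCCCGGC), and once in a Grhl1 window, against 13.7% of all windows. A GC box stood 58 to 53 bases before the start site of Epcam and 53 to 48 before that of Grhl3, on the opposite strand in both, and 5 of the 8 windows held one (those of Epcam and Grhl3, 1 of Grhl1 and 2 of Tfap2a), against 32.7% of all windows. TATAAA was in none of the 8 windows and in 12.4% of all. No match overlapped another, and these letters describe the windows alone.

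Levels are in FPKM, the deposited unit, which gives fragments for each kilobase of transcript and each 1000000 mapped reads, with the mean ± SD over n = 5 libraries. The step between low values implied 20.6 to 28.4 M (1 M = 1000000) reads per library behind the unit, so 1 read in a transcript of 2000 bases was worth 0.0196 to 0.0269 FPKM. FPKM summed to between 747034 (replicate 1) and 847625 (replicate 4) per library, and 16275 to 18456 genes lay above 0. The neural progenitor markers Pax6, Sox1, Sox2, Sox3, Nes, Cdh2 and Prom1 lay above 1 FPKM by the limma test described further on and Hes5 was called neither way. Of 6 markers of definitive endoderm (Sox17, Foxa1, Foxa2, Foxa3, Cdx2 and Cldn18), another source of simple keratins and Epcam, all 6 lay below 1 FPKM, and their sum was 0.189 to 0.537 FPKM per library. The sum of 6 trophoblast markers, another keratin-bearing type, was 0.572 to 1.58 FPKM. Of these, 4 were below, Gata3 was called neither way and Hand1 was listed at 0 in all 5 libraries. Of 6 markers of pluripotent and germ cells, Nanog (3.97 ± 1.24 FPKM) was above, 4 were below and Prdm1 was called neither way. Over all genes tested 41.4% were called below. Which cells the keratin and Epcam reads came from was not tested.

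The simple keratins had the highest levels of the 10 genes. Krt18 (ENSMUSG00000023043) was at 54.3, 77.8, 72.3, 54.3 and 52.7 FPKM in replicates 1 to 5 (62.3 ± 11.8), above the mean level of 90.3% of all genes in the table. Replicates 2 and 3 were high, and replicates 1, 4 and 5 lay close together below them. Krt8 (ENSMUSG00000049382) was at 20.4, 29.2, 30.0, 19.0 and 21.7 FPKM (24.1 ± 5.16), and again replicates 2 and 3 were the high libraries. Krt19 (ENSMUSG00000020911), a type I keratin with a very short tail, was at 12.7, 17.9, 17.1, 11.04 and 12.7 FPKM (14.3 ± 3.04), with the same libraries high. Depth was not limiting here: the Krt8 values stood for about 819 to 1344 reads per library.

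**Figure D1:**
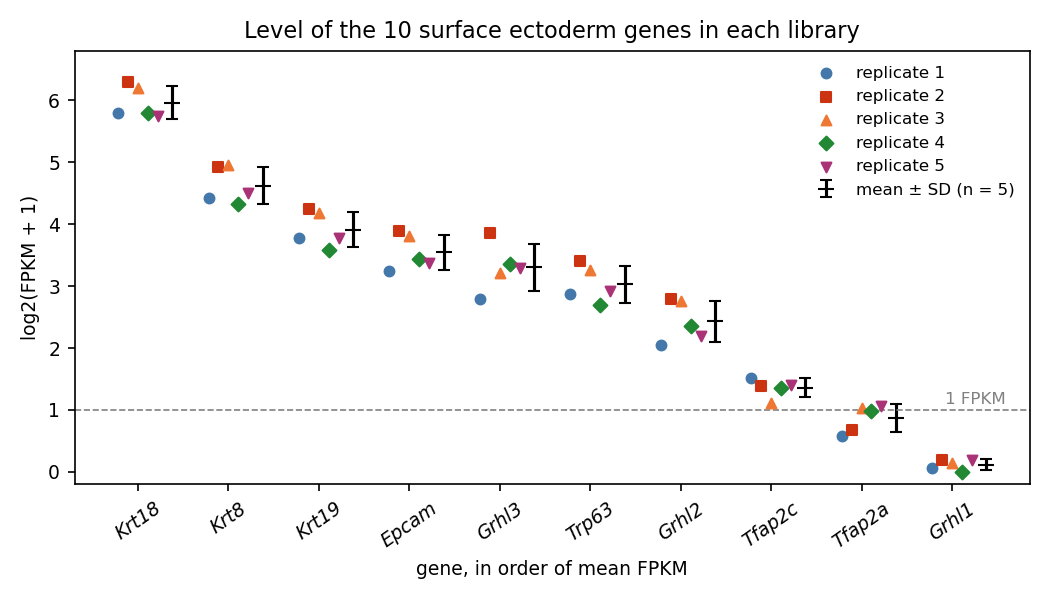
Level of the 10 genes as log2(FPKM + 1), in order of mean FPKM, with each of the 5 libraries as a point and the mean ± SD (n = 5) as a bar. Krt18 is highest at a mean of 62.3 FPKM and Grhl1 lowest at 0.0848 FPKM, and the dashed line marks 1 FPKM.

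Krt18 exceeded its partner Krt8 by 2.66, 2.66, 2.41, 2.86 and 2.43 times in replicates 1 to 5, a difference of 1.34 ± 0.10 on the log2(FPKM + 1) scale, so the ratio varied less than either gene. Krt8 exceeded Krt19 by 1.61 to 1.75 times, or 0.71 ± 0.05 on the same scale. Krt7, a further type II keratin of simple epithelia and not one of the 10 genes, was at 12.6, 17.4, 16.6, 10.3 and 11.8 FPKM. Krt19 exceeded Krt7 by 1.01, 1.03, 1.03, 1.07 and 1.08 times, and this comparison was chosen after the values were seen. For scale, Krt18 was near Pax6, the forebrain progenitor factor (64.6 ± 7.64 FPKM): Krt18 was the higher in replicates 2 and 3 and the lower in the other 3 libraries. That comparison, too, was chosen with the values known.

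Among the 51 keratin genes in the table, 6 had a mean of at least 1 FPKM, and the median of the family was 0.0107 FPKM against 1.79 over the 19706 genes tested. The family median includes keratins listed at 0 in all libraries, whereas the genes tested leave such genes out. Of the 48 keratins outside the 10 genes, limma called 2 above 1 FPKM (Krt7 and Krt10, the latter a suprabasal keratin, at 3.08 ± 0.45), 30 below and 2 neither way, and 14 were listed at 0 in all 5 libraries. Over all genes tested, 52.3% were called above and 41.4% below. The 3 keratins described here therefore stand among few with a mean of at least 1 FPKM, and choosing them fixed that much. Krt8 (chromosome 15, 101996698 to 102004482, minus strand) and Krt18 (chromosome 15, 102028180 to 102032027, plus strand) are transcribed away from each other from starts 23698 bases apart. No annotated gene lies wholly between them, although the non-coding Gm36026 overlaps the 5′ end of Krt8 on the other strand, and reads of such overlaps cannot be told apart without strand. Krt19 (chromosome 11, 100140810 to 100148665, minus strand) neighbours Krt15 (1.20 ± 0.50 FPKM), a basal keratin. Krt8 also has an annotated processed pseudogene, Krt8-ps, and reads shared with it would make the Krt8 level uncertain.

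**Figure D2:**
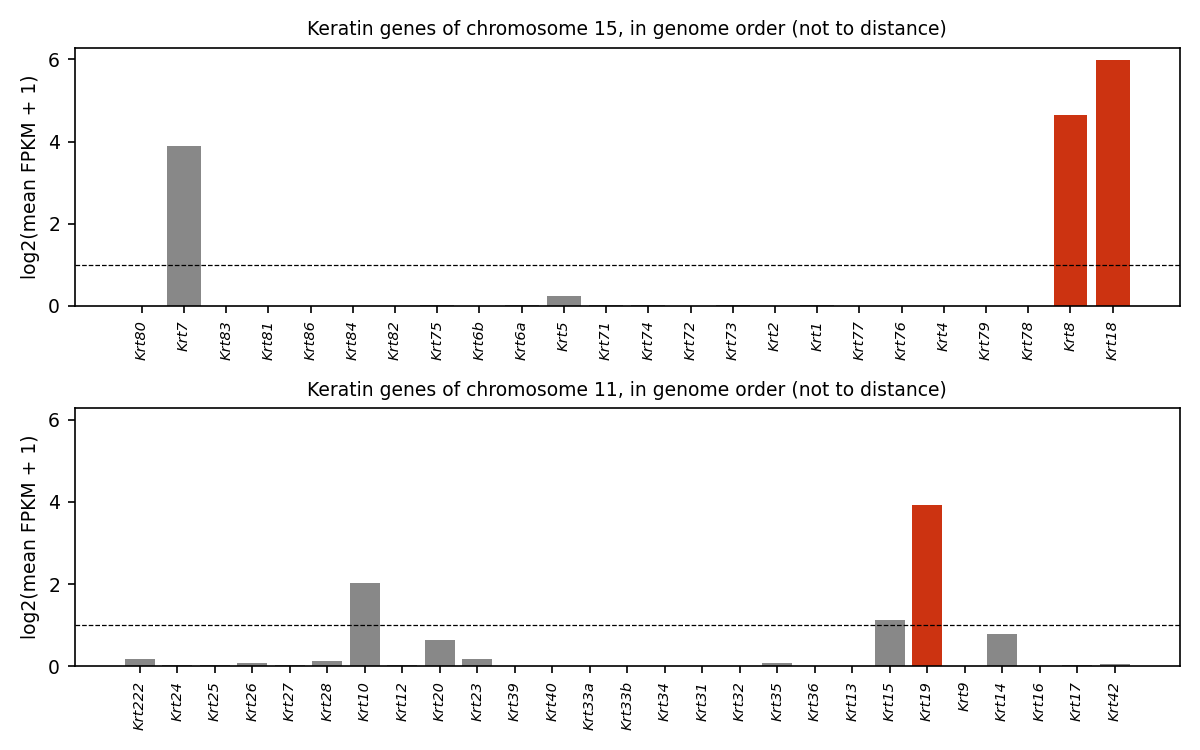
Mean level as log2(mean FPKM + 1) of the keratin genes of chromosomes 15 and 11 in genome order, with Krt8, Krt18 and Krt19 in red and a dashed line at 1 FPKM. Besides these 3, Krt7, Krt10 and Krt15 pass the line, and most bars cannot be seen because the median is 0.0107 FPKM.

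Epcam and the surface ectoderm regulators were lower than the keratins, and all but Grhl1 were well above the value of single reads. Epcam (ENSMUSG00000045394, chromosome 17, 87635979 to 87651129) was at 8.44, 13.8, 13.0, 9.81 and 9.31 FPKM (10.9 ± 2.37), with replicates 2 and 3 high and no overlap with the other 3. It lay near Sox2 (11.6 ± 1.72), the neural progenitor factor, with Epcam the higher in 2 of 5 libraries. Trp63 (ENSMUSG00000022510, chromosome 16, 25683763 to 25892102) was at 6.32, 9.64, 8.54, 5.45 and 6.53 FPKM (7.30 ± 1.73), and its high libraries were again replicates 2 and 3. The table holds 1 value per gene, so the isoforms of Trp63 with and without the transactivation domain could not be separated. Of the other p53-family genes, Trp53 stood at 345 ± 26.0 FPKM and Trp73 had 0.00961 FPKM in replicate 1 and was listed at 0 in the others. Trp63 minus Trp53 was -5.40 ± 0.29 on the log2(FPKM + 1) scale, with Trp53 higher in 5 of 5 libraries.

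The grainyhead-like genes differed widely in level. Grhl3 (ENSMUSG00000037188, chromosome 4, 135541888 to 135573630) was highest, at 5.95, 13.6, 8.29, 9.22 and 8.79 FPKM (9.16 ± 2.76). Replicate 2 stood above the rest and replicate 1 below, while replicate 3 lay with replicates 4 and 5. Grhl2 (ENSMUSG00000022286, chromosome 15, 37233036 to 37363569) was at 3.13, 5.91, 5.78, 4.14 and 3.57 FPKM (4.51 ± 1.28), so for Grhl2 replicate 3 was a high library. Grhl2 minus Grhl3 was -0.87 ± 0.27 on the log2(FPKM + 1) scale, with Grhl3 higher in 5 of 5 libraries and the ratio of Grhl2 to Grhl3 at 0.697 in replicate 3 against 0.406 to 0.526 elsewhere. Grhl1 (ENSMUSG00000020656, chromosome 12, 24572283 to 24617391) was listed at 0.0402, 0.147, 0.101, 0 and 0.136 FPKM, which stood for about 3, 13, 7, 0 and 10 reads. The library without a read was the deepest, and no difference between libraries was tested for so few reads. Antisense genes (Gm16136 and Gm16137) are annotated over parts of Grhl2.

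The CP2 factors Ubp1, Tfcp2 and Tfcp2l1 are relatives of the grainyhead proteins, and Ubp1 and Tfcp2 are known from many tissues. Ubp1 (10.6 ± 0.78 FPKM) and Tfcp2 (3.43 ± 0.25) were called above 1 FPKM and Tfcp2l1 (0.22 ± 0.07) below. The libraries of Ubp1 lay between 9.36 and 11.3 FPKM and those of Tfcp2 between 3.02 and 3.70, narrower ranges than for Grhl2 and Grhl3.

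The AP-2 genes were the lowest after Grhl1 and followed other libraries. Tfap2c (ENSMUSG00000028640, chromosome 2, 172549593 to 172558622) was at 1.87, 1.62, 1.16, 1.56 and 1.65 FPKM (1.57 ± 0.26), with replicate 3 lowest and replicate 1 highest. Tfap2a (ENSMUSG00000021359, chromosome 13, 40715302 to 40738376) was at 0.492, 0.592, 1.04, 0.979 and 1.09 FPKM (0.84 ± 0.28), with replicates 1 and 2 low and the other 3 together above them. Tfap2c exceeded Tfap2a in 5 of 5 libraries (Tfap2a minus Tfap2c, -0.49 ± 0.34 on the log2(FPKM + 1) scale), from 0.263 of its level in replicate 1 to 0.893 in replicate 3. Tfap2b, an AP-2 factor of neural crest and mesenchyme outside the 10 genes, was at 8.24, 12.6, 18.7, 12.4 and 14.8 FPKM and exceeded Tfap2a in each library. Tfap2d (0.155 ± 0.136) and Tfap2e (0.0221 ± 0.0165) were called below 1 FPKM. Antisense genes Gm47061, Gm26688 and Gm47067 are annotated across Tfap2a, which matters most at so low a level.

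In order of mean FPKM the genes ran Krt18, Krt8, Krt19, Epcam, Grhl3, Trp63, Grhl2, Tfap2c, Tfap2a and Grhl1. Each neighbour in that order kept its place in 5 of 5 libraries except Grhl3 and Trp63, whose order held in 3 of 5. The values of Grhl3 and Trp63 overlapped, and their means lay within the spread. Tfap2c and Tfap2a are the genes just above and just below a mean of 1 FPKM, and 8 of 10 lay at or above it. With every library rescaled to the same sum Tfap2a was at 1.04 FPKM, which made 9 of 10.

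The shared variation between libraries had a plain form. For 6 of the 10 genes (Trp63, Grhl2, Epcam, Krt8, Krt18 and Krt19) replicates 2 and 3 were the highest libraries, a rule chosen after seeing the values. Over the 10983 genes of the table that averaged 1 FPKM or more the share was 6.98%. Because the genes were chosen with their variation known, nothing is read from that contrast beyond the description. Of the rest, Grhl3 had replicate 2 highest but replicate 3 below replicates 4 and 5, Grhl1 rested on 13 reads or fewer per library, and Tfap2a and Tfap2c had replicates 5 and 1 highest. Among the 8 of the 10 genes averaging 1 FPKM or more, replicate 1 was lowest for 3 (34.9% of all such genes), replicate 4 lowest for 3 (15.1%) and replicate 2 highest for 6 (22.6%).

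**Figure D3:**
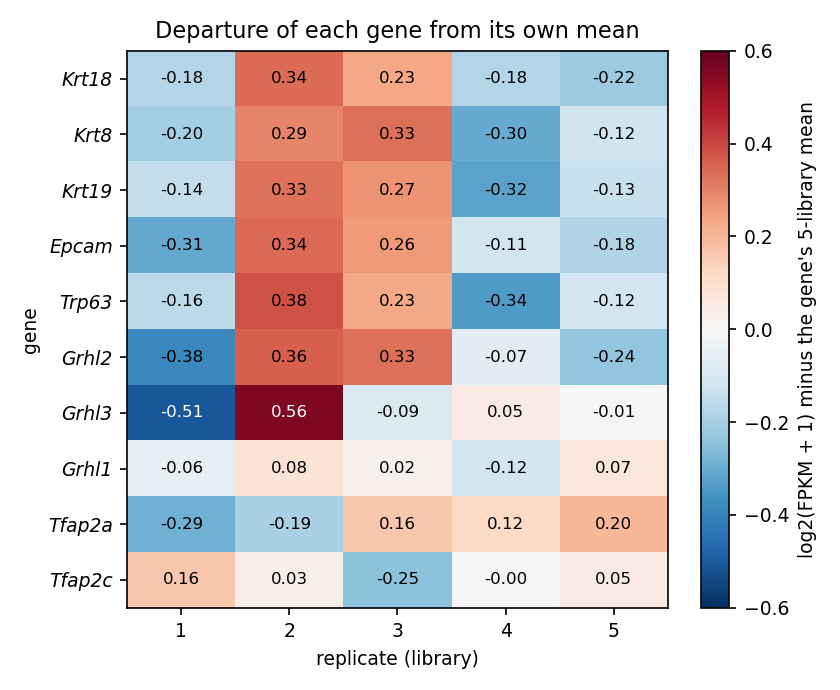
Difference of each gene's log2(FPKM + 1) from its own mean over the 5 libraries, with genes in rows, replicates in columns and red for values above the mean. Columns 2 and 3 are above 0 in the first 6 rows, whereas Grhl3 is above 0.5 in replicate 2 alone and Tfap2a and Tfap2c take other signs.

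The differences were modest in size. The highest library exceeded the lowest 1.48 times for Krt18, 1.58 for Krt8, 1.62 for Krt19, 1.64 for Epcam, 1.77 for Trp63, 1.89 for Grhl2 and 2.28 for Grhl3, against a median of 1.37 over genes averaging 1 FPKM or more. The SD of log2(FPKM + 1) was 0.26 to 0.38 for these 7 genes, against a median of 0.16. Of all genes averaging 1 FPKM or more, 6.06% had an SD at least as large as that of Grhl3 and 18.9% one at least as large as that of Krt18, so many other genes varied as much. Tfap2c had an SD of 0.15, near that median, but its highest library exceeded its lowest 1.61 times. At so low a level the pseudocount compresses the SD. With 5 libraries no correlation between genes across libraries is given.

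Genes outside the 10 were compared with the median profile of the 8 genes averaging 1 FPKM or more, which was -0.19, 0.34, 0.24, -0.14 and -0.13 in replicates 1 to 5 on the log2(FPKM + 1) scale. Likeness was the root mean square difference between profiles centred on the gene's mean, over 5 libraries and 10975 genes, whose median was 0.26. The 8 nearest genes were 2310007B03Rik (0.0302), Ovol1 (0.0424), Ccdc68 (0.0518), Dsg2 (0.0535), Fbxo36 (0.0575), Zfp324 (0.0581), Kcnk1 (0.0605) and Bmf (0.0621). Ovol1 is a zinc finger repressor that acts in epidermal differentiation. Dsg2 is a cadherin of desmosomes, the spot junctions to which keratin filaments attach. Ovol1 was at 1.02, 2.05, 1.74, 1.06 and 1.20 FPKM, high in the same libraries as Krt18. Cdh1, the epithelial cadherin, ranked 12 of 10975 and the desmosomal cadherin Dsc2 ranked 20. Of the 38 genes of the related lists averaging 1 FPKM or more, 28 lay nearer than the median gene and 10 farther. Among the farther were the claudin Cldn3 (rank 7811), the splicing factor Esrp1 (7386) and the plakophilin Pkp3, the farthest at 10816. The measure takes in the size of a swing as well as its libraries. Ubp1, not high in the libraries of Krt18, lay nearer (0.227), whereas Esrp1 and Cldn3, both high in them, lay farther. The counts therefore do not say how many genes shared those libraries. With 5 values per gene and so many genes, close profiles also arise among unrelated ones.

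The wider epithelial programme was examined in 8 lists of 59 genes, written from general knowledge but with earlier results of these data known. limma's moderated test of log2(FPKM + 1) against 1 FPKM called 35 of the 59 above and 16 below (adjusted p under 0.05, Benjamini-Hochberg), with 5 neither way and 3 listed at 0 in all libraries, and the counts at an unadjusted p under 0.05 were equal. The median of the 59 genes, those listed at 0 included, was 1.92 FPKM. It was 1.79 over the genes tested, which leave out genes listed at 0 throughout, and 52.3% of the genes tested were called above. The lists differed. Junction genes were above in 17 of 19 cases, and regulators in 8 of 14, near the share of all genes. Of 9 keratins of stratified epithelia, 6 were below or listed at 0. Over all genes tested 41.4% were below, and 2095 of the 21801 genes were listed at 0 in all libraries.

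Of 19 adhesion and junction genes 17 were above 1 FPKM, 1 below and 1 neither way, with a median of 4.01 FPKM. The claudin Cldn6, a tight junction protein of embryonic epithelia, was highest at 74.3, 161, 135, 107 and 101 FPKM (116 ± 33.3). F11r, the junctional adhesion molecule A, stood at 48.8 ± 8.48 and Cdh1 at 25.2 ± 5.67 (3.69 above 1 FPKM on the log2 scale, SE 0.11, limma adjusted p = 1.2e-08). Marveld3, a tight junction protein, was lowest at 0.22 ± 0.08. Among 14 regulators, trafficking and splicing genes 8 were above, 4 below and 2 neither way (median 2.35 FPKM). Of all genes tested, 52.3% were above and 41.4% below. Ap1m2, the epithelial clathrin adaptor subunit, was at 19.4, 42.0, 30.7, 31.0 and 27.1 FPKM, Rab25, a GTPase of apical recycling, at 10.9, 27.8, 20.5, 13.7 and 12.1, and Grb7, a receptor adaptor, at 15.2 ± 2.77. Ovol2 was lowest at 0.05 ± 0.04.

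The membrane-anchored serine protease network, in which prostasin and matriptase are held in check by Kunitz inhibitors, had 4 of 5 genes above 1 FPKM and 1 below, where 52.3% of all genes tested were above. The count above was 3 without replicate 2, 3 or 5. Prss8 (prostasin) was at 27.9 ± 7.04 FPKM, the inhibitor Spint2 at 22.1 ± 4.17, St14 (matriptase) at 1.92 ± 0.69, the inhibitor Spint1 at 1.73 ± 0.69 and Tmprss2 at 0.31 ± 0.11. Against a level of 2 FPKM St14 turned from above to below without being called (log2 difference -0.07). Of 9 keratins of stratified epithelia and periderm 1 was above (Krt10), 4 below and 2 neither way, while Krt4 and Krt13 were listed at 0 in all 5 libraries. Their median was 0.0251 FPKM. Krt14, the basal partner of Krt5, was at 0.997, 0.788, 0.684, 0.956 and 0.235 FPKM and was called neither way, and Krt5 (0.18 ± 0.10) was called below. Of the other simple epithelial keratins, Krt7 (13.7 ± 3.12) was above, Krt20 (0.57 ± 0.09) and Krt23 (0.13 ± 0.13) were below and Krt80 was listed at 0 in all 5 libraries. Genes that almost every cell uses are also listed at 0 in this table, so a 0 is given only as listed. Without replicate 1 Krt15 was called above 1 FPKM, which made the stratified count 2, and Krt14 was called below (log2 difference -0.28).

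Many of these genes had the keratins' high libraries. Replicates 2 and 3 were the highest libraries for 24 of the 38 listed genes averaging 1 FPKM or more, and for 26 of all 59, against 6.98% of all genes with that mean. By list these were 13 of 18 junction genes, 6 of 9 regulators and 3 of 4 protease genes. Cldn6, F11r, Cdh1, Cldn7, Cdh3 and the desmosomal plaque protein Jup were among the first, Rab25, Grb7 and the splicing factor Esrp1 among the second, and Prss8, Spint2 and St14 made up the third. Ap1m2 was not among them, having replicate 4 (31.0 FPKM) above replicate 3 (30.7). The rule takes no account of the size of a difference, and some genes met or missed it narrowly. F11r met it with 49.3 FPKM in replicate 3 against 49.1 in replicate 5. Crb3 did so with 3.22 in replicate 3 against 3.21 in replicate 1, and Tfcp2 with 3.48 in replicate 2 against 3.47 in replicate 1. The difference from all genes was not tested, since the rule was taken from these libraries.

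**Figure D4:**
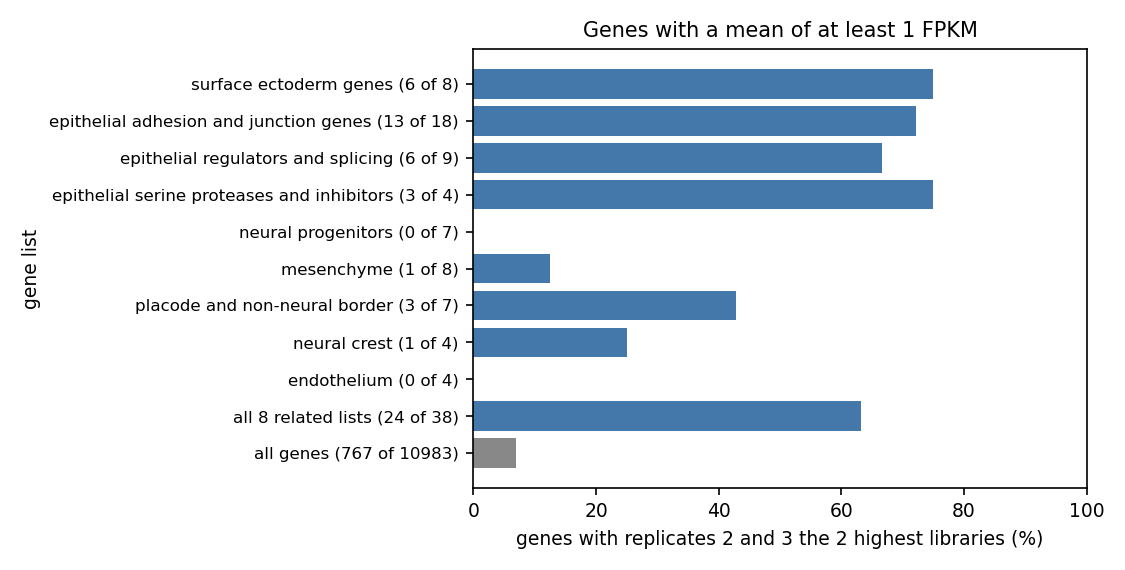
Percent of genes averaging 1 FPKM or more for which replicates 2 and 3 were the highest libraries, by gene list, with the number of genes in parentheses and all genes in grey. The epithelial lists with 4 or more such genes lie between 66.7% and 75.0%, placode and border markers at 42.9%, neural crest markers at 25.0%, mesenchyme markers at 12.5%, all genes at 6.98%, and neural progenitor and endothelium markers at 0.

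Markers of other cell types also moved between libraries. The placode and border list did so in part as the 10 genes did, and the others in other ways. Their part in the results above was not tested. In bulk RNA fewer cells of a type and less RNA per cell cannot be told apart. The 10 genes summed to 114, 170, 157, 115 and 118 FPKM in replicates 1 to 5, a range of 1.50 times. The 8 mesenchyme markers, all above 1 FPKM, summed to 37.8, 65.9, 139, 114 and 115 FPKM, a range of 3.67 times with replicates 1 and 2 low, so replicate 2 was high for the keratins and low for mesenchyme. The 8 neural progenitor markers summed to 238, 233, 183, 211 and 210 FPKM, with replicate 3 low, and for 0 of the 7 with a mean of at least 1 FPKM were replicates 2 and 3 the highest. The 6 neural crest markers summed to 23.6, 35.5, 49.6, 47.2 and 44.2 FPKM with 4 above and 2 below, Foxd3 being listed at 0 in replicates 1 to 4. The 9 markers of placodes and the non-neural border, ectoderm that adjoins the neural plate, summed to 32.7, 62.9, 52.9, 42.9 and 45.2 FPKM. That sum was highest in replicates 2 and 3 as for the 10 genes, but Dlx5 alone was at 16.1, 40.4, 25.5, 21.3 and 22.4 FPKM. The median profile of those averaging 1 FPKM or more was -0.33, 0.15, 0.26, 0.03 and -0.05 on the log2(FPKM + 1) scale. Replicates 2 and 3 were the highest libraries for 3 of the 7 of these markers with a mean of at least 1 FPKM. In that list 5 were above 1 FPKM, 1 below, 2 neither way and Foxi3 was listed at 0 in all 5 libraries. The 6 endothelium markers (1 above, 2 below and 3 neither way) summed to 5.54 to 12.1 FPKM per library. The 6 blood markers (4 below and 2 neither way) summed to 1.81 to 7.83 FPKM.

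**Figure D5:**
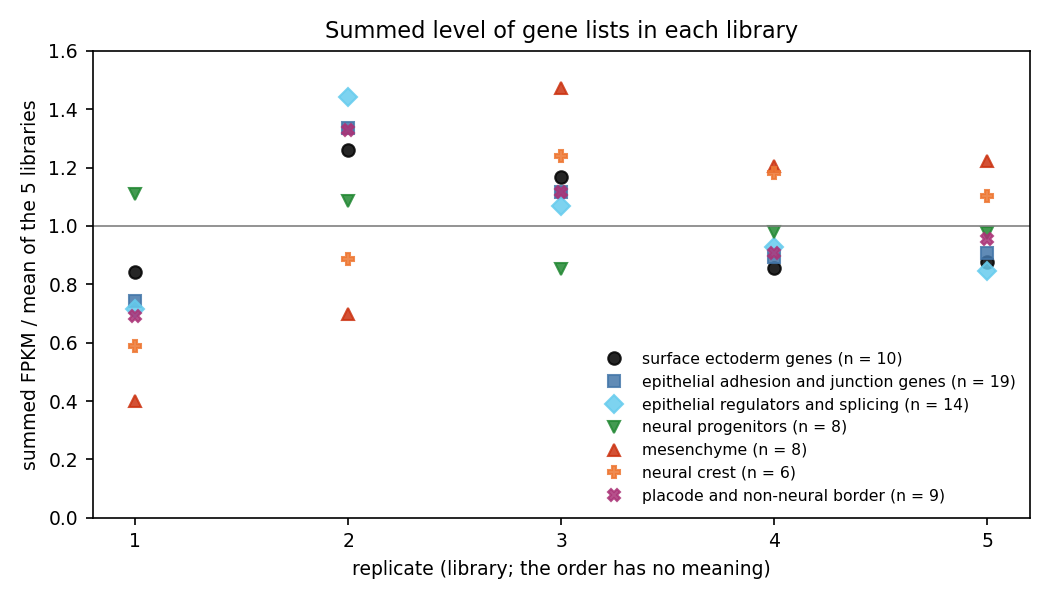
Summed FPKM of 7 gene lists in each library, divided by the list's mean over the 5 libraries, with n the number of genes. The surface ectoderm, epithelial, and placode and border lists are highest in replicate 2, mesenchyme and neural crest in replicate 3, and neural progenitors in replicate 1.

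Against these marker profiles the 10 genes fell apart. Trp63, Grhl2, Epcam, Krt8, Krt18 and Krt19 had a root mean square difference of 0.0433 (Krt18) to 0.113 (Grhl2) from the median profile of the 8 genes that averaged 1 FPKM or more, which they helped to set, 0.120 (Epcam) to 0.211 (Trp63) from the placode and border profile, and 0.487 or more from the mesenchyme profile. Tfap2c differed by 0.0708 from the neural progenitor profile and by 0.319 from that of the 8 genes. Tfap2a differed by 0.163 from the endothelium profile, 0.166 from neural crest and 0.308 from the 8 genes. Grhl3 differed by 0.249 from the 8 genes and by 0.252 from the placode and border profile. These values are descriptions over 5 libraries that share 1 scaling, and for Tfap2a and Tfap2c the pseudocount compresses the differences.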

How the data were processed

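Total RNA of mouse NECs was sequenced in 5 libraries. Per the labels' protocols, poly-dT primed cDNA was made with template switching, amplified (12 cycles), sheared, made into libraries (15 cycles) and read as single ends of 75 bases, and no molecular identifiers or strand marking are described. The authors deposited 1 table of FPKM. The submitters' processing notes name mm10, Cuffdiff 2.2.1, TopHat2 2.0.11, cutadapt and CASAVA 1.8, without roles, and the annotation release is not given in the sources used here.

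Columns were matched to samples by replicate number. In R 4.3.3, limma 3.58.1 tested, over all genes not listed at 0 throughout, the intercept of log2(FPKM + 1) against 1 FPKM (two-sided, variance trend, Benjamini-Hochberg), a fit tested on simulated data. The scale understates differences of low genes. Depth was read from single-transcript genes under 0.15 FPKM and over 800 bases, less 200 bases. Read counts per gene are approximate, from the longest GENCODE M21 transcript. PCR copies and splitting of reads between near-identical genes limit accuracy beyond counting error.

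The genes, lists, pairs, motifs and rules were chosen with earlier results of these data known. Named beside the 10 genes were the 3 highest and the lowest gene of each list, both genes of each pair and the 8 nearest profiles, and other names were chosen after their values were seen. Alternatives were pseudocounts, rescaling, levels, filters, variance settings and leaving out each replicate.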

Additional observations from a re-analysis of the deposited data

Results flagged for a closer look

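Among the 44 genes checked (the 10 surface ectoderm genes, the named genes of the related lists and the 8 nearest profiles), 3 had 1 library far from the other 4 by Dixon's test, which chance does in about 1 of 20 groups. Tfap2d was at 0.389 FPKM in replicate 2, against 0.0554 to 0.151 elsewhere. Grb7 was at 20.1 FPKM in replicate 2, against 13.5 to 15.1 elsewhere. Trp73 was at 0.00961 FPKM in replicate 1 and listed at 0 in the other 4 libraries, less than the value of 1 read in a transcript of 2000 bases. None of the 10 genes met this test.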

How the results depend on the processing

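Scaling every library to 1000000 FPKM in all raised the level of Trp63 to 9.16, Epcam to 13.6, Krt8 to 30.2, Krt18 to 78.1, Krt19 to 17.9, Tfap2c to 1.98 and Tfap2a to 1.04 FPKM, since the deposited sums were below that total, and left the 6 genes with replicates 2 and 3 highest as they were, as did rescaling by the median ratio. Without replicate 5 that count was 7, Grhl1 being added (11.9% of all genes averaging 1 FPKM or more). Without replicate 3 the rule could only ask for replicate 2 highest, which 8 genes met, Grhl1 and Grhl3 among them (25.8% of such genes). Without replicate 2 it could only ask for replicate 3 highest, which 6 met (25.7%). Grhl1 itself lay below that mean. Grhl2 minus Grhl1 was 3.07 with a pseudocount of 0.5 and 4.67 with 0.1, and Tfap2a minus Tfap2c was -0.88 with 0.1. A filter on a mean of at least 0.1 FPKM, which removes low genes by construction, left 9 of the related genes called below 1 FPKM, 1 of the stratified keratins and 2 of the regulators. Against 2 FPKM 11 junction genes were called above and 3 below, 7 regulators below and 2 protease genes above, and against 0.5 FPKM 2 stratified keratins above and Krt20 turned above (log2 difference 0.063). St14 turned below at 2 FPKM (log2 difference -0.069). Leaving out each replicate gave 1 to 2 stratified keratins above. No paired analysis was possible because there is 1 group. Depth limits Grhl1 most, at about 0 to 13 reads per library.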
